A study of Caenorhabditis elegans with 2 samples.

Results

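The transfer RNA (tRNA) genes of chromosome X of Caenorhabditis elegans were examined for regions enriched in chromatin immunoprecipitation sequencing (ChIP-seq) of EYG-1, a transcription factor of the homeodomain class whose name refers to eyegone of Drosophila. The members were all genes of biotype tRNA on X in the Ensembl annotation of the WBcel235 assembly, which is the ce11 build of the peak lists, whatever their ChIP-seq signal. They numbered 276 of the 612 nuclear tRNA genes, the other 336 lying on chromosomes I to V, and of 46890 annotated genes of all kinds on the 6 chromosomes. The study held 1 group of 2 libraries, biological replicates 1 and 3 in the labels, from whole hermaphrodite late embryos of strain OP443 taken 4 hours after synchronization by egg bleaching. All worms carried a transgene, stably expressed, for the product of Y53C12C.1 (eyg-1) that ends, C-terminally, in a GFP-FLAG tag, and sonicated chromatin was precipitated with an antibody to GFP. Whole embryos were used, so the cells in which a region was occupied are not known. The control library that the labels name, and any immunoprecipitation from worms without the tagged protein, was not analysed here, so that enrichment at tRNA genes in the absence of the tagged protein was not measured.

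tRNA genes are short genes transcribed by RNA polymerase III. Their promoters lie inside the transcribed sequence, in an A box near the 5' end and a B box nearer the 3' end that the factor TFIIIC recognises. TFIIIC places TFIIIB just upstream of the gene, and transcription ends at a run of T residues after it. Because the promoter is internal, copies with identical transcribed sequence carry identical A and B boxes and differ in their flanks and surroundings. Homeodomain proteins bind DNA directly, and many of them recognise a core of the letters TAAT.

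A peak was counted at a tRNA gene when its summit lay in the gene or within 100 bp of either end. The optimal list held the 519 regions that passed the authors' cut-off on the irreproducible discovery rate, a measure of how reproducibly regions rank. What was compared to obtain that rate is not known here. The pooled list and the replicate lists hold weaker candidate regions too, so a region in them is called a candidate. The signal of a region is the authors' own value per region, whose scale differs between lists, and it is used to rank and describe regions within a list. Genes are called "with a peak" when an optimal summit was near, "candidate only" when a pooled summit alone was near, and "without a candidate" otherwise.

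The sequences of the strongest gene and of 1 family of identical copies show what the genes share and where they differ. C04A11.t1, a leucine tRNA gene at chrX:13665555-13665673 on the plus strand, had the highest optimal signal of the X tRNA genes. Its sequence in WBcel235 is given with the match to the A box core TNGNNNA and to the B box core GTTCNANNC in capitals. The 100 bases before it, chrX:13665455-13665554, are given with GAGAGA, or TCTCTC as it reads on the other strand, in capitals.
C04A11.t1 gene: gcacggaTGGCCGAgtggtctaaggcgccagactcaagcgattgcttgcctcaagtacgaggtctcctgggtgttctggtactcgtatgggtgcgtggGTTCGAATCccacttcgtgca
C04A11.t1 5' flank: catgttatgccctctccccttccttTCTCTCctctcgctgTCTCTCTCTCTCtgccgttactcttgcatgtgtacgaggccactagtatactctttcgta

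The tyrosine family was chosen for display after its values were seen, because all 6 copies of this gene sequence in the genome lie on X and 4 of them lie side by side in 1 cluster. The genes C02B4.t2 (chrX:12665228-12665311, plus strand) and R11.t1 (chrX:16209769-16209852, minus strand) had a peak. The genes R11.t2 (chrX:16209228-16209311), R11.t3 (chrX:16208825-16208908), R11.t4 (chrX:16208263-16208346) and F56F10.t1 (chrX:865389-865472), all on the minus strand, had no pooled candidate. Their shared gene sequence is given first, with the A and B box cores in capitals, and then the 100 bases before each copy, with GAGAGA or TCTCTC in capitals.
Tyrosine gene, all 6 copies: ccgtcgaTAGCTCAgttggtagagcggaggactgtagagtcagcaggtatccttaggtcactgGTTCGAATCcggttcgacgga
C02B4.t2 5' flank, with a peak: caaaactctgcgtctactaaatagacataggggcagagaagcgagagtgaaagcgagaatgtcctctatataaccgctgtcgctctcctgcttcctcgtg
R11.t1 5' flank, with a peak: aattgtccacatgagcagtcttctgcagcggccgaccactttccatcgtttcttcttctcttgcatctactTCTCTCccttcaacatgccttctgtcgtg
R11.t2 5' flank, without a candidate: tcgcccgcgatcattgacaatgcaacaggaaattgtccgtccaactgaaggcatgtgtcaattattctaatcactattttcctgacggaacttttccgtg
R11.t3 5' flank, without a candidate: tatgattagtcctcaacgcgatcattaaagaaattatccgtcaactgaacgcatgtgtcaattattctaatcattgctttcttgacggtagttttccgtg
R11.t4 5' flank, without a candidate: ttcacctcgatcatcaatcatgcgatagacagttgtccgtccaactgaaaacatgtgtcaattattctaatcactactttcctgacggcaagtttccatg
F56F10.t1 5' flank, without a candidate: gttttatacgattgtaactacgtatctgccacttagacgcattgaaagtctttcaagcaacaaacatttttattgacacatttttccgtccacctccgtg

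The flanks of the 2 tyrosine copies with a peak held 49% G and C each, and those of the 4 copies without a candidate held 44%, 37%, 41% and 38%. The flanks of R11.t2, R11.t3 and R11.t4 share a run of identical bases and resemble each other around it, so they are not fully separate. GAGAGA or its complement occurred in the flank of R11.t1 alone among the 6. The signal at C02B4.t2 was 163 in the optimal list, 57.8 in replicate 1 and 101 in replicate 3. The signal at R11.t1 was 90.8 in the optimal list, 34.9 in replicate 1 and 54.3 in replicate 3. Both were thus among the stronger regions of each replicate, at ranks 92 and 380 of 27360 in replicate 1 and 60 and 211 of 24519 in replicate 3. R11.t4 and F56F10.t1 had a region in replicate 1, of signal 13.8 and 10.8, and none in replicate 3. R11.t2 and R11.t3 had a summit within 100 bp in no list. Identical copies share reads over the gene itself, so that reads there may be split or misplaced between them, but 76.6% to 80% of the 50-base sequences in each copy and its 100 bp flanks occur once in the genome.

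Of the 276 X tRNA genes, 58 (21.0%) had an optimal summit, against 47 of 336 (14.0%) tRNA genes off X. Among all 46890 annotated genes 1.18% had one, and among non-overlapping windows of X as long as a typical tRNA gene with both flanks, 272 bp, 0.204% held one. With the 58 genes in the optimal list, a further 88 X genes (31.9%) were candidate only and 130 (47.1%) had no pooled candidate. On the pooled list alone X did not stand above the off-X share, with 146 of 276 X genes (52.9%) against 182 of 336 off X (54.2%), beside 22.9% of all annotated genes. The difference lay in how many of the genes with a pooled candidate also had an optimal summit, 39.7% on X against 25.8% off X. Counted over regions rather than genes, 2.1% of all pooled regions had an optimal summit within 100 bp of their own. No summit in any of the 4 lists lay near 103 of the X genes.

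The replicates were compared over the 519 strongest regions of each list. In replicate 1, 49 X genes (17.8%) had such a region against 38 genes off X (11.3%), beside 1.07% of all annotated genes. In replicate 3, 60 X genes (21.7%) had one against 58 off X (17.3%), beside 1.21% of all annotated genes. X was above the off-X share in both libraries, but the gap was wider in replicate 1. By single chromosome the share with an optimal summit was 21.0% on X, 16.7% on I, 17.5% on II, 17.2% on III, 9.86% on IV and 10.3% on V. In replicate 3 chromosome II, with 24.6%, stood above X. Genes are not replicates of a chromosome and the study held 1 group, so no test of the difference was made. The small nucleolar RNA (snoRNA) genes, another class of short non-coding genes, had an optimal summit at 49 of 346 (14.2%), and at 0 of the 33 on X.

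**Figure D1:**
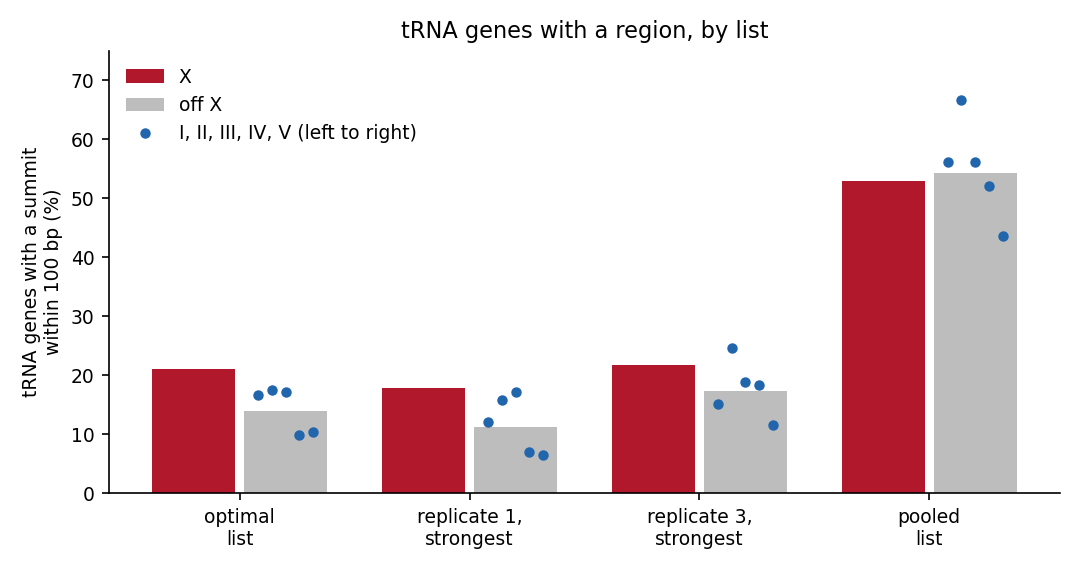
Share of tRNA genes (%) with a summit within 100 bp in the optimal list, among the 519 strongest regions of each replicate list, and in the pooled list. Red bars are genes on X, grey bars genes off X, and blue points the single chromosomes I to V; X is above the grey bar in the first 3 lists (21.0% against 14.0%, 17.8% against 11.3% and 21.7% against 17.3%) and not in the pooled list (52.9% against 54.2%).

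Most optimal summits, but not all, fell on the 5' part of the gene or before it. The 58 genes and 55 optimal summits made 59 pairs, with 4 summits each near a pair of genes, and C04A11.t1 near 2 summits. Along the gene's strand the summit lay at a median of 12 bp after the 5' end, with quartiles from 15.5 bp before to 54 bp after it. In all, 32 pairs had the summit inside the gene (19 nearer its 5' end and 13 nearer its 3' end), 21 had it upstream and 6 downstream. At off-X genes the median was 22 bp, with 28 of 47 pairs inside, 17 upstream and 2 downstream. The nearest pooled summits at the 58 X genes lay at a median of 11.5 bp, those of replicate 1 at 15 bp (53 genes) and those of replicate 3 at 16 bp (58 genes). Of these summits, 46 of 58, 34 of 53 and 31 of 58 in the same order were within 20 bp of the optimal summit. The regions themselves were wide, 456 bp for 54 of the 55, so that a region spans the gene and both flanks and the summit is the one value that places the signal.

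**Figure D2:**
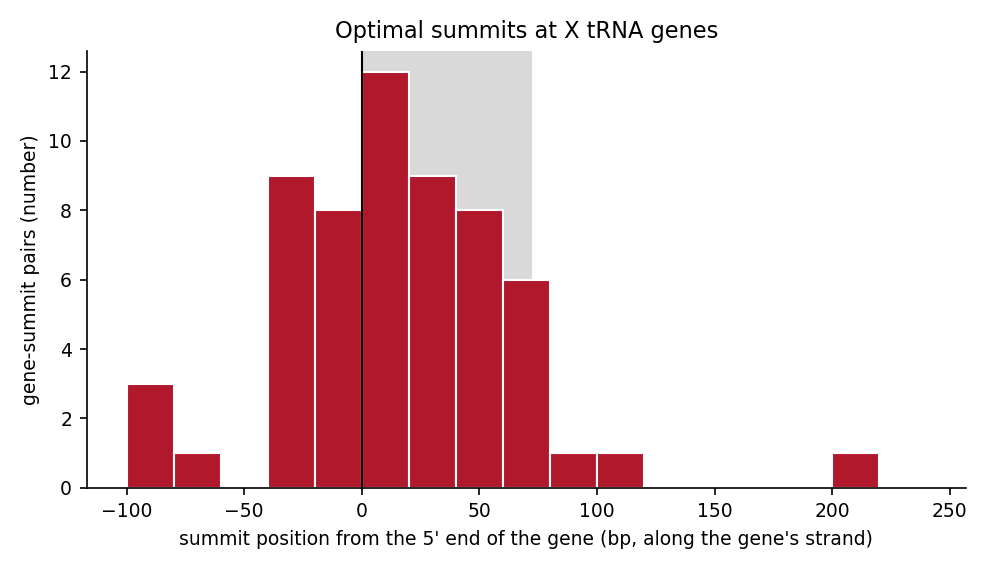
Position of optimal summits (bp from the 5' end, along the gene's strand; 20 bp steps) for the 59 gene-summit pairs at X tRNA genes. The line marks the 5' end and the grey band the median gene length of 72 bp; the median summit is 12 bp after the 5' end, and the pair at 211 bp is the second summit of C04A11.t1.

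Peaks at X tRNA genes were tall for the optimal list. Their median signal was 112 (quartiles 90.2 and 140.4, n = 55 peaks), against 102 at off-X tRNA genes (n = 45), 85.3 at the 80 optimal peaks of X away from tRNA genes, and 91.6 over all 519. snoRNA genes were higher, with a median of 144 (n = 49). Of the 55 peaks, 39 (70.9%) were among the strongest 259 of the list and 20 (36.4%) in its top 100, against 62.2% and 22.2% of the off-X tRNA peaks. Of the 80 other X peaks, 4 (5%) were in the top 100.

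C04A11.t1, the leucine gene shown above, led with a signal of 266 in the optimal list, 114 in replicate 1 and 152 in replicate 3, at ranks 7, 6 and 15. It is the single copy of its sequence in the genome, lies outside protein-coding genes, and had a second, lower optimal summit of signal 97.5 beyond its 3' end. The alanine genes F15G9.t1 and F15G9.t2, 87 bp apart in the same-strand introns of him-4, which encodes a hemicentin of the extracellular matrix, shared 1 optimal peak of signal 208. In replicate 1 each had its own summit, of signal 74.0 and 36.0, and in replicate 3 both were nearest to 1 summit of signal 145. The single optimal summit lay 3 bp from F15G9.t1 and 84 bp from F15G9.t2, so that both were counted under the 100 bp limit. The list cannot tell whether the summit belongs to 1 of these genes or to both.

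R04A9.t1, a glutamine gene, had 203 in the optimal list, 79.2 in replicate 1 and 113 in replicate 3. No other of the 15 X glutamine genes had a peak. These 4 genes were the X members of the 20 strongest optimal peaks, in 3 peaks.

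F41D9.t3 (asparagine) had 191 in the optimal list, with 70.0 in replicate 1 and 99.6 in replicate 3. W03G11.t1 (lysine) had 190.0, with 67.3 in replicate 1 and 131 in replicate 3. C28G1.t1 (glutamate), in an exon of the protein-coding gene C28G1.2 and 97 bp from its annotated 5' end, had 184, with 64.0 in replicate 1 and 113 in replicate 3. They stood at ranks 43 to 67 in replicate 1 and 24 to 62 in replicate 3.

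C06G1.t1 (histidine) had 183 in the optimal list, E03E2.t1 (serine) 175 and T07H6.t2 (alanine) 167. E03E2.t1 lies opposite in strand within cat-1, which encodes the vesicular monoamine transporter. Their signal was 51.1, 55.4 and 69.0 in replicate 1 and 110.2, 101 and 87.0 in replicate 3, in the order given.

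The weakest members were R02E12.t1 (glycine) with 73.3, T06H11.t2 (arginine) with 73.8 and F12D9.t1 (cysteine) with 73.9. The lowest signal in the whole optimal list was 71.5, so they stood at its lower edge. R02E12.t1 had 14.9 in replicate 1, at rank 3978, and 41.6 in replicate 3, at rank 400, so its peak rested mostly on replicate 3.

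Across the X genes the replicates ranked the signal alike. Over the 99 genes with a summit in both replicate lists, Spearman's rho was 0.77 and Pearson's r of the log2 signals was 0.77, a description over genes that share 2 libraries. Within the 53 genes with a peak rho was 0.56, and within the 46 without a peak it was 0.20, so that the gap between the groups enters the overall figure. Over 133 off-X genes rho was 0.65. The median signal of the genes with a peak was 45.4 in replicate 1 and 61.8 in replicate 3, against 12.7 and 21.4 in those that were candidate only. The optimal list was drawn from these replicate lists and the pooled list. A higher signal there thus follows from the selection of genes with a peak.

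**Figure D3:**
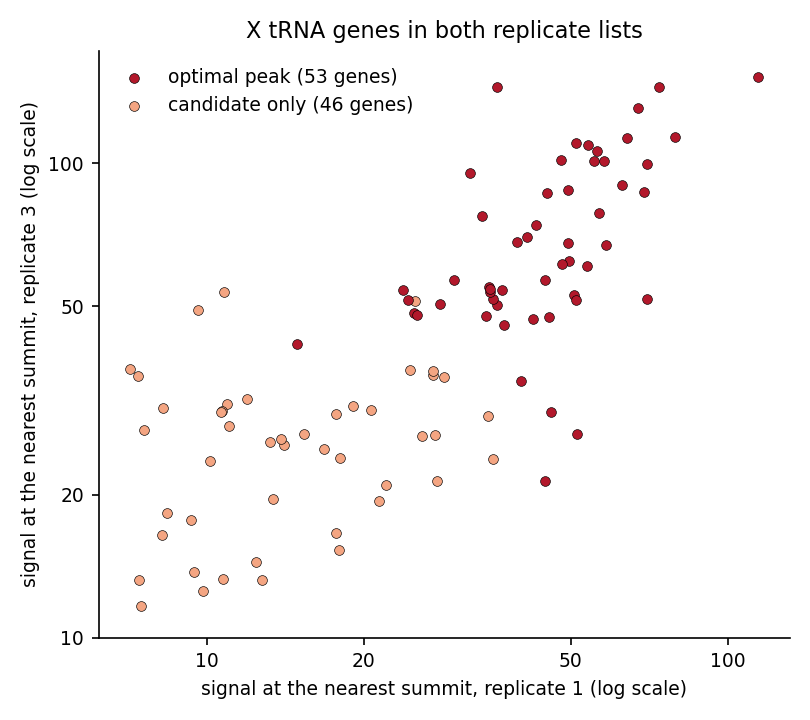
Signal (authors' units, log scales) at the nearest summit in replicate 1 and replicate 3 for the 99 X tRNA genes with a summit in both lists. The 53 genes with an optimal peak (red) lie above most of the 46 candidate-only genes (pale). The optimal list was drawn from these lists and the pooled list, so this gap follows from the selection. The 5 genes with an optimal peak but no replicate 1 summit within 100 bp cannot be drawn.

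All 58 genes with a peak had a summit in replicate 3, and 53 had one in replicate 1. The 5 genes without one were C04E7.t1 (leucine), whose nearest replicate 1 summit lay 102 bp away, T03G6.t1 (glycine), C16B8.t3 (proline), M02F4.t2 (glutamate) and C53C7.t2 (serine). Their replicate 1 summits lay 102 to 165 bp away, outside the 100 bp limit. The largest rank differences between replicates were those of R02E12.t1, of C53C7.t1 (serine; rank 216 in replicate 1 and 2090 in replicate 3) and of F22F1.t6 (methionine; 142 and 1084), each at the nearest summit. F22F1.t6 had a second, stronger replicate 3 summit within 100 bp, at rank 277. The pair C53C7.t1 and C53C7.t2, 131 bp apart on opposite strands, shared 1 optimal summit, 38 bp from the first and 93 bp from the second. The members just inside the limit were C53C7.t2 at 93 bp, M02F4.t2 at 87 bp and F15G9.t2 at 84 bp, and the nearest genes outside it were F46G11.t1 at 180 bp, K02A4.t1 at 219 bp and F12D9.t6 at 232 bp.

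Among the 88 candidate-only genes the strongest was T14F9.t1 (aspartate), with 78.6 in the pooled list (rank 313), 25.1 in replicate 1 and 51.2 in replicate 3. F25F6.t1 (glutamate) had 65.8 in the pooled list, F59C12.t3 (valine) 65.1, T18D3.t1 (alanine) 63.2 and H08J11.t3 (glutamine) 63.0. The pooled signal of F25F6.t1 came with 10.8 in replicate 1 and 53.6 in replicate 3, whereas the other 3 had 27.2 to 28.6 and 35.4 to 36.4. The median pooled signal was 30.7 in the candidate-only genes and 107 in those with a peak. The optimal list was drawn in part from the pooled list, so this gap too follows from the selection.

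Peaks were not limited to one kind of tRNA. All 20 amino acid classes with an X gene had at least 1 gene with a peak, and the 3 genes with no class in the annotation had none. The shares were highest for alanine (5 of 13 genes), tyrosine (3 of 8) and glycine (7 of 20), and lowest for glutamine (1 of 15), valine (1 of 14) and aspartate (1 of 12). The counts by class were not alike on X and off X. Glycine had 7 of 20 genes on X against 0 of 35 off X, and arginine 3 of 27 on X against 8 of 17 off X. Alanine had 5 of 13 against 3 of 21, and lysine 2 of 18 against 7 of 28. The classes hold few genes each and no class was tested. The tryptophan gene sup-7, known for its amber suppressor mutations, had a peak of signal 89.5 in the optimal list, 36.1 in replicate 1 and 50.2 in replicate 3; it is named here because it is well studied and was chosen after its values were seen.

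The gene sequence itself did not sort genes with a peak from the rest. Of 106 distinct gene sequences on X, 73 occur once there and 33 occur more than once, in 203 genes. In 27 of the 33 repeated sequences some copies had a peak and others did not (42 of 186 genes with a peak). In the other 6 (17 genes) no copy had one, and in no repeated sequence did all copies have one. At most 3 copies of any sequence had a peak.

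The largest such family was a proline gene with 13 copies on X. It had a peak at F46G11.t2 (96.3 in the optimal list, 44.7 in replicate 1, 56.8 in replicate 3), H06A10.t1 (89.1, 28.1 and 50.5) and ZK899.t1 (86.0, 39.5 and 68.1), and none at 10 copies. C48C5.t3 had a summit within 100 bp in no list, and R04D3.t3 in replicate 1 alone, with a signal of 11.4. Unlike most families, the flanks of its copies with a peak did not stand apart in GC content, with a mean of 40.3% against 40% in the rest. GAGAGA or its complement, in capitals, was in the flank of all 3 copies with a peak and of 1 of the 10 other copies. That copy, F46G11.t1, is candidate only and lies 190 bp from F46G11.t2. Among the other copies, the flanks of F23D12.t1, ZK678.t3 and Y7A5A.t3 resemble each other, so they are not fully separate. The word was chosen after flank sequences were seen. The gene sequence and the flanks of the 5 copies named are given.
Proline gene, 13 copies on X: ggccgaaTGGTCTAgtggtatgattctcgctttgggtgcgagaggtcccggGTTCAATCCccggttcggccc
F46G11.t2 5' flank, chrX:5801283-5801382, minus strand, with a peak: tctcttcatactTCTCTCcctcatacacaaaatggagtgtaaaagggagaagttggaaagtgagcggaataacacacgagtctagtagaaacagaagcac
H06A10.t1 5' flank, chrX:13512042-13512141, minus strand, with a peak: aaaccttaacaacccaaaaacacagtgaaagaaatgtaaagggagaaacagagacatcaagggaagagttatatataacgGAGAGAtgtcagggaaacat
ZK899.t1 5' flank, chrX:9467801-9467900, minus strand, with a peak: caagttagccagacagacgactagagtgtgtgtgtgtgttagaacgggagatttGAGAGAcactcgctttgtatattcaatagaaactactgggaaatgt
C48C5.t3 5' flank, chrX:8969560-8969659, minus strand, without a candidate: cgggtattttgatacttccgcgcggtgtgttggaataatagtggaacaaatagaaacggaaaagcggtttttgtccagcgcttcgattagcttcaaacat
R04D3.t3 5' flank, chrX:13307930-13308029, plus strand, without a candidate: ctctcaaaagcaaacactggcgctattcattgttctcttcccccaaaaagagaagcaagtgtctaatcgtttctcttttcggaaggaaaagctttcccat

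In the family of 12 glutamate copies, rte-1 had 105 in the optimal list, 48.0 in replicate 1 and 61.3 in replicate 3, while F15A8.t1 and F15A8.t2 had a summit within 100 bp in no list. The other copy with a peak, M02F4.t2, shared 1 summit of signal 122 with the glycine gene M02F4.t1, 117 bp away. In the family of 11 glycine copies, M02F4.t1, K09C8.t1 (114) and F56C3.t1 (97.6) had a peak. R04E5.t4 had a summit in no list and ZK154.t3 had one of signal 16.6 in replicate 1 alone. Unlike in the proline family, no copy with a peak in the glutamate and glycine families had GAGAGA or its complement in the 100 bp 5' flank. The word was not counted within every family.

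The internal promoter matches were near universal with or without a peak. The B box core GTTCNANNC was found in 55 of 58 genes with a peak and in 213 of 218 without, beside 1.34% of all windows of X of gene length. The A box core TNGNNNA in the first 30 bases was in all 58 and in 216 of 218, beside 37.6% of X windows. A run of TTTT in the 40 bases after the gene was in all 58 and in 215 of 218, beside 43.3% of X windows.

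The 5' flank differed. In the 100 bp before the gene, mean GC content was 46.4 ± 5.57% in the 58 genes with a peak, 40.1 ± 6.44% in the 88 candidate-only genes and 35.9 ± 6.88% in the 130 without a candidate (SD over genes). All 100 bp windows of X have a median of 35%. In the 100 bp after the gene the means were 29.1%, 28.6% and 28.0% in the same order. The difference was thus on the 5' side, and in 20 bp steps it was widest from 41 to 60 bp before the gene, where the means were 49.6%, 40% and 35.8%. From 161 to 180 bp before the gene they were 33.9%, 34.5% and 34.7%.

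**Figure D4:**
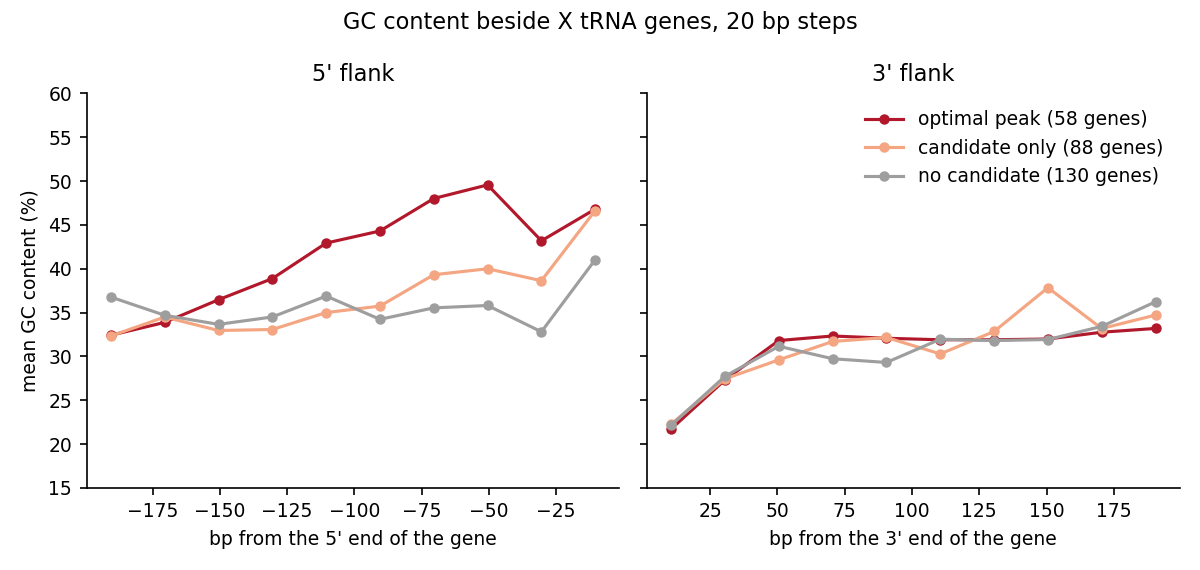
Mean GC content (%) in 20 bp steps before (left) and after (right) X tRNA genes, for the 58 genes with an optimal peak, 88 candidate-only genes and 130 genes without a candidate. The red line is above the others up to 160 bp before the gene, by most from 41 to 60 bp (49.6% against 40% and 35.8%), and not beyond; the 3 lines lie close together within 120 bp after it.

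By steps of 5' flank GC content, the count of genes with a peak was 0 of 37 at 30% or less, 1 of 51 above 30 and up to 35%, 8 of 68 up to 40%, 15 of 55 up to 45%, 23 of 46 up to 50% and 11 of 19 above 50%. The same counts among the strongest regions of replicate 1 were 0, 0, 4, 12, 22 and 11, and those of replicate 3 were 1, 1, 8, 15, 24 and 11. The share thus went up with GC content in both libraries. Off X the counts were 0 of 28, 2 of 39, 2 of 55, 6 of 76, 18 of 81 and 19 of 57, which also went up, at lower shares from 35% GC upward. Within the genes in a replicate list, Spearman's rho between 5' flank GC content and signal was 0.51 in replicate 1 (125 genes) and 0.59 in replicate 3 (143 genes), as a description over genes. Among the 58 genes with a peak it was 0.24 with the optimal signal. GC content can itself change how many fragments a library yields, and its part in the result was not tested.

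Identical copies gave the same picture. In 26 of the 27 families with both kinds of copy, the copies with a peak had the higher mean GC content in the 5' flank, by a median of 9 percentage points (from -1 to 19.1). In the 3' flank the copies with a peak were higher in 14 of 27, by a median of 0.667 points. The families are not fully separate. The 5' flanks of M02F4.t1 (glycine) and M02F4.t2 (glutamate) overlap, and these genes share a summit. F15G9.t1 and F15G9.t2, in different alanine families, share a peak. The family in which copies with a peak were lower was an arginine gene, with 39% at T06H11.t2 against 40% in the other 9 copies. The widest gap was in a histidine family, with 52% at C06G1.t1 against 32.9% in the other 7 copies, of which F28H6.t3 and F28H6.t4 share 1 flank sequence and F28H6.t6 and F28H6.t7 another.

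**Figure D5:**
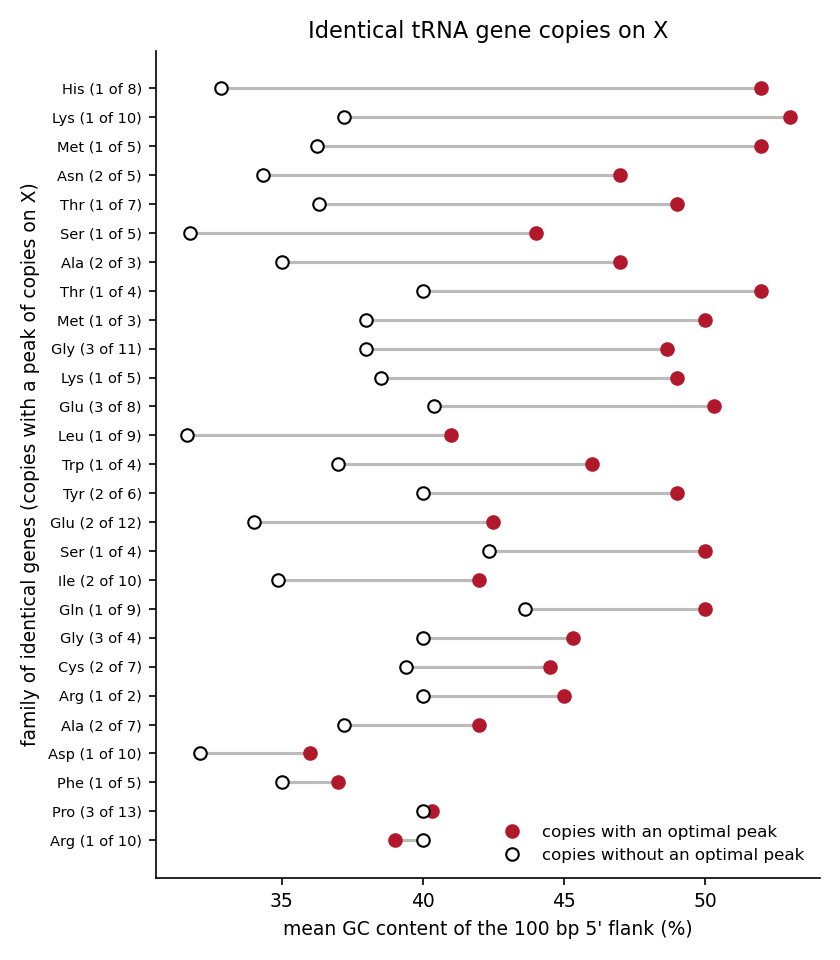
Mean GC content (%) of the 100 bp 5' flank in copies with an optimal peak (red) and copies without one (open) for each of the 27 families of identical X tRNA genes with both kinds. Rows are families, labelled by amino acid and by copies with a peak of all X copies; the red point is on the right in 26 of 27.

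Short words were counted in the flanks. TAAT, searched on both strands, was in the 100 bp 5' flank of 15 of 58 genes with a peak (25.9%), of 59.1% of candidate-only genes and of 72.3% of genes without a candidate, beside 65.6% of all 100 bp windows of X. Off X it was in 34.0% of genes with a peak and 43.6% of those without. TAAT is poor in G and C. Within flanks of 35% GC or less it was in the 1 gene with a peak and in 77 of 87 without. Above 35 and up to 40% GC it was in 4 of 8 genes with a peak and 35 of 60 without. Above 40 and up to 45% it was in 3 of 15 and 22 of 40, and above 45% in 7 of 34 and 12 of 31. The gap thus varied with GC content and was small from 35 to 40%. In the 100 bp 3' flank TAAT was in 63.8% of X genes with a peak and 80.7% of those without. TATA, searched likewise, was in the 100 bp 5' flank of 39.7% of genes with a peak and 30.7% of those without, beside 34.1% of X windows. In the 50 bp 5' flank it was in 31.0% and 16.1%. Off X the shares with and without a peak were close, 27.7% and 29.4% in 100 bp 5' flanks and 17% and 16.6% in 50 bp ones.

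GAGAGA, searched on both strands and chosen after flank sequences were seen, was in the 5' flank of 29 of 58 genes with a peak (50%), of 19.3% of candidate-only genes and of 5.38% of genes without a candidate, beside 4.86% of X windows. Off X it was in 29.8% of genes with a peak and 14.5% of those without. In 50 bp 5' flanks it was in 22.4% of genes with a peak and 5.5% of those without on X, and in 10.6% and 6.92% off X. In 200 bp flanks it was in 53.4% and 14.2% on X and in 51.1% and 20.1% off X, so that the shares of genes with a peak were nearly the same on and off X at that length. In the 100 bp 3' flank it was in 1.72% of X genes with a peak and 3.21% of those without. Off X the 3' shares went the other way, 8.51% with a peak and 3.11% without. The 5' matches at X genes with a peak lay at a median of 55 bp before the gene. The 5' flanks of C53C7.t1 and C53C7.t2 overlap, so that the same matches were counted at both genes. Within flanks above 35 and up to 40% GC it was in 5 of 8 genes with a peak and 5 of 60 without, above 40 and up to 45% in 10 of 15 and 8 of 40, and above 45% in 14 of 34 and 6 of 31. Of the 53 X genes with GAGAGA in the 5' flank, 29 (54.7%) had a peak and 7 had no candidate. Among genes with a peak the median optimal signal was 105 with the word and 122 without it. A match is a description of letters, and binding of any factor to it was not measured.

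Genes in clusters had fewer peaks. Of 168 X genes with no other tRNA gene within 500 bp, 43 (25.6%) had a peak and 33.3% had no candidate. Of 108 with such a neighbour, 15 (13.9%) had a peak and 68.5% had no candidate. Off X the shares with a peak were 14.6% of 274 and 11.3% of 62. The 5' flanks of isolated genes held 47.4%, 40.4% and 35.1% G and C in genes with a peak, candidate-only genes and genes without a candidate, and those of genes with a neighbour 43.5%, 38.9% and 36.4%. The part of GC content in the difference between isolated and neighboured genes was not tested. Counted as loci, 54 of 211 had a peak. Of the 43 loci with more than 1 gene, 11 had a peak and 18 had no candidate at any gene. The largest held 6 genes (F28H6.t2 to F28H6.t5, chrX:14135045-14137010) with no optimal peak and 1 candidate gene. The loci of 5 genes at K01A12 and at H08J11 had no optimal peak either and 1 candidate gene each, and in the 4-gene loci at F22F1 and R11 the peak was at 1 gene, F22F1.t6 and R11.t1. At F28H6.t3, F28H6.t4, F28H6.t6 and F28H6.t7 from 0% to 35.4% of the 50-base sequences of the gene and its flanks occur once in the genome, so that reads there may not be placed.

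Along the chromosome, 10 segments of equal length held from 12 to 54 tRNA genes. Numbered from the left end, the share with a peak was highest in segment 2 (7 of 12) and lowest in segment 10 (3 of 34), with 6 of 54 in segment 5, the densest, and 14 of 53 in segment 8. Of 180 genes outside protein-coding genes 22.2% had a peak, of 45 in an intron on the opposite strand 22.2%, and of 50 in an intron on the same strand 14.0%.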

How the data were processed

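ChIP-seq of GFP-tagged EYG-1 in whole late embryos was analysed in 2 libraries, which form 1 group. The deposited lists hold the authors' signal of each region and the position of its summit in bp from the region's start, in ce11, per the notes deposited with the libraries. A replicate list came from 1 library and its control, the pooled list from both libraries, and the optimal list from a threshold on the irreproducible discovery rate. The ce10 lists were not used. The caller, the aligner and the exact comparison among lists behind the optimal list are not given in the sources used here. Read depth is unknown, so no interval that needs it was computed. tRNA genes came from Ensembl release 115 (WBcel235), with amino acids and sequence from RefSeq for the same assembly, and all 612 nuclear genes matched; 22 mitochondrial genes were left out. Summits were matched to genes with Python 3.11.15 (pandas 2.3.3, numpy 2.4.6), after the matching was tested on simulated data. With 1 group no test across samples exists, and every result is a count, share or range. The genes named were the 10 highest and 3 lowest by optimal signal, every X tRNA gene of the 20 strongest peaks, the 5 strongest candidate-only genes, up to 5 genes in each of the 3 largest mixed families, genes on which replicates differed most, and genes beside the 100 bp limit. The members and lists were chosen with earlier results of these data known.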

Additional observations from a re-analysis of the deposited data

How the results depend on the processing

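Counting only summits inside the gene gave 32 X genes and 28 off-X genes with an optimal summit, and 70 X genes with a pooled one, by construction of the narrower limit. The strongest 259 regions of the optimal list left 42 X genes and 29 off-X genes, also by construction. The median signal at X tRNA genes was then 128, and with summits inside the gene or within 50 bp 116 and 113. With 1 replicate left out, X genes with a summit among the strongest regions numbered from 49 to 60 (also the range of the replicate mean of 54.5) and off-X genes from 38 to 58. The median position was then from 13 to 14.5 bp and the median signal from 46.8 to 60.7, on the scales of those lists. The replicate correlation was 0.716 with summits within 300 bp (134 genes) and 0.927 over genes of unique sequence. The latter value rests on 11 genes, against 99 in the main setting, and the cause of the changes was not tested. TAAT was in 13.8% of 50 bp and 70.7% of 200 bp 5' flanks of X genes with a peak, against 38.5% and 88.5% without. TATA was in 31.0% of 50 bp and 62.1% of 200 bp flanks with a peak, against 16.1% and 59.2% without; longer flanks hold any short word more often. The difference in 5' flank GC content between X genes with a peak and without a candidate was 10.5 points. It was 9.01 with 50 bp flanks, 6.05 with 200 bp flanks, 12.3 in isolated genes and 9.42 to 11.4 with 1 replicate left out. In genes of unique sequence, few of which had a peak, it was 8.85. These settings were chosen after seeing the data, and the cause was not tested. Other distances, overlap with the gene, unique flanks and loci kept the X count within 1.5 times. No paired analysis was possible because the study holds 1 group.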
